A study of Mus musculus with 4 samples.

Results

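Respiratory complexes II to V were followed through their nuclear genes in regulatory T cells (Tregs), a class of CD4 T cell that holds other immune cells in check. The genes were taken by name from the deposited table: Sdha to Sdhd, every symbol beginning with Uqcr, Cyc1, Cycs, Cox4 to Cox8 and every symbol beginning with Atp5. This gave 49 of the 24452 listed genes, made up of 4 of complex II, 9 of complex III, 1 for cytochrome c, 18 of complex IV and 17 of complex V. The cells were liver Tregs of young animals that were either Altre-WT or Altre-KO, the latter lacking Altre, a long non-coding RNA of these cells. Each genotype had 2 RNA-sequencing libraries, and the labels give no strain, sex, age in weeks, cell sort or knockout allele, nor whether the 2 libraries came from separate mice. P-values therefore measure the spread between these samples, pooled over many genes, which may be technical. The comparison of genotypes asks how the RNA of young liver Tregs differs when Altre is missing. Altre itself was not analysed here, and the genotype labels were taken as given.

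The respiratory chain passes electrons from nutrients to oxygen in the inner mitochondrial membrane and pumps protons as it does so. Complex II (succinate dehydrogenase) also works in the citric acid cycle and feeds electrons to ubiquinone, complex III hands them to cytochrome c, and complex IV reduces oxygen. Complex V, the ATP synthase, lets protons back through a rotating ring of c subunits and makes ATP in its F1 head. Most subunits are encoded in the nucleus. The protein genes of the mitochondrial genome, which supply the catalytic core of complex IV among others, were not analysed here. Tregs are known to draw on oxidative metabolism more than effector T cells do.

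Levels are in CPM, in which each library's reads on listed genes are scaled to one common total. The libraries held 1828772 and 2378953 estimated reads on listed genes in Altre-WT replicates 1 and 2, and 3266132 and 2361928 in Altre-KO replicates 1 and 2. Altre-KO replicate 1 stood apart: of all its reads 32.8% fell on listed genes, where the remaining libraries had 18.8% to 21.5%. All 8 Treg markers were above 0, with summed levels of 3331 to 3422 CPM, although Foxp3 was at 79.5 CPM in Altre-KO replicate 1 and at 140 to 162 CPM elsewhere. Among markers of other cells, 8 of 9 for macrophages and Kupffer cells were above 0 (summed 208 and 306 CPM in Altre-WT, 308 and 180 CPM in Altre-KO, Vsig4 at 0). The 4 endothelial markers summed to 175 to 221 CPM, of which Pecam1 alone made up 172 to 215 CPM, while Stab2 was at 6.02 and 5.04 CPM in Altre-WT and at 0.92 and 1.27 CPM in Altre-KO and Clec4g and Kdr at 1.09 CPM or less. Those of hepatocytes summed to at most 2.54 CPM with Alb, Apoa2, Ttr and Fgb at 0. The part of other cells in the values reported here was not tested. In bulk RNA, fewer cells of a type and less RNA per cell cannot be told apart.

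Promoters of respiratory genes are known for sites of NRF1, of ETS factors such as GABPA, of YY1 and of the oestrogen-related receptors (ERR). Windows of 300 bases, 250 before and 50 after the start site (RefSeq, GRCm38.p6), were available for 38 of the 49 genes and were searched on both strands. A gene was counted if any of its windows held the motif. The NRF1 motif GCGCANGCG was present for 13 of 38 genes (34.2%) and the ETS motif CCGGAAG for 12 (31.6%). The YY1 motif GCCATNTT was present for 6 (15.8%) and the ERR motif TCAAGGTCA for 2 (5.26%). Over all 27025 genes with a window the shares were 7.03%, 9.93%, 6.96% and 0.466%, and over the 8294 genes tested here that had one, 16.8%, 22.7%, 11.1% and 0.313%. An NRF1 or ETS motif was found for 3 of 3 genes of complex II, 3 of 5 of complex III, 3 of 13 of complex IV and 9 of 16 of complex V. The share of this combined class over all genes is not given here. The 13 of complex IV include Cox6b2, Cox7a1, Cox7b2 and Cox8b, which were at or near 0 CPM and had neither motif. A match is a description of letters, not a site of binding. The runs of 30 bases printed here lie upstream of, or touch, the RefSeq start site of genes whose values are given in full further on. GENCODE gene positions, used elsewhere here, can differ. By those, the Atp5g2 and Atp5j runs lie inside the gene and the Cox6b1 run mostly does. Each run reads 5′ to 3′ along the gene's strand, here always the minus strand, with the motif or its reverse complement in capitals. Atp5j, added after the matches were seen, stands for the YY1 motif.
Sdhd NRF1, chr9:50603909-50603938: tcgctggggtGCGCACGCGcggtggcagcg
Uqcrh ETS, chr4:116075071-116075100: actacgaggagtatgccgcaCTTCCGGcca
Cox6a1 NRF1, chr5:115349056-115349085: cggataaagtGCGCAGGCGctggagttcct
Cox6b1 ETS, chr7:30626124-30626153: tcctctcgcagCTTCCGGccagtcggaatt
Atp5g2 NRF1, chr15:102671070-102671099: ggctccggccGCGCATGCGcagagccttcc
Atp5g3 ERR, chr2:73911359-73911388: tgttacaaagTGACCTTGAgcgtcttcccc
Atp5l NRF1, chr9:44920963-44920992: aaccaataaCGCATGCGCatttcccccact
Atp5j YY1, chr16:84835046-84835075: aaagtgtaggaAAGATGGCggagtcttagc
The NRF1 motif is nearly its own reverse complement, so that in Atp5g2 it matched on both strands, 1 base apart. Atp5g1, the gene of complex V with the smallest p between genotypes, had none of the 4 motifs in any window.

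Most of these genes were well expressed in liver Tregs and none was shown to differ between the genotypes. Of the 49 genes, 44 were above 0 in at least 1 library and 41 passed the filter on low values, which asked for 10 estimated reads at median depth (4.22 CPM) in at least 2 libraries. The 8 that did not pass were Cox7c and the isoforms Cox4i2, Cox6a2, Cox6b2, Cox7a1, Cox7b2, Cox8b and Cox8c. None of the 41 reached an adjusted p of 0.05 in limma, fitted across all 10486 tested genes, where 4 genes (0.0381%) did, all lower in Altre-KO. None of the 41 had an unadjusted p under 0.05 either, against 384 genes (3.66%) of all tested. With limma-voom on estimated reads, 0 of the 41 passed the threshold and 1, Atp5l, had an unadjusted p under 0.05 (0.0468). The authors' deposited table gives all 49 an adjusted p of 1. Differences, here and throughout, are Altre-KO minus Altre-WT in log2(CPM + 1), which understates the change of low genes. The estimate lay above 0 for 25 of the 41 (47.9% of all tested genes lay above 0), and the median was 0.03 against -0.01 over all tested genes. It lay above 0 in 2 of 4 genes of complex II (median -0.00), 6 of 9 of complex III (0.09), 8 of 10 of complex IV (0.04) and 9 of 17 of complex V (0.03). Without Altre-KO replicate 1 only 16 of the 41 lay above 0 and the median was -0.09, whereas without Altre-KO replicate 2 there were 32 and the median was 0.18. In 8 of the 41 genes (19.5%, against 30.8% of all tested genes) the 2 genotypes did not overlap. Both Altre-KO libraries lay above both Altre-WT libraries for Uqcrb, Uqcrq, Cox7a2, Cox7a2l and Atp5a1, and both lay below for Cox5b, Atp5g1 and Atp5l.

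**Figure D1:**
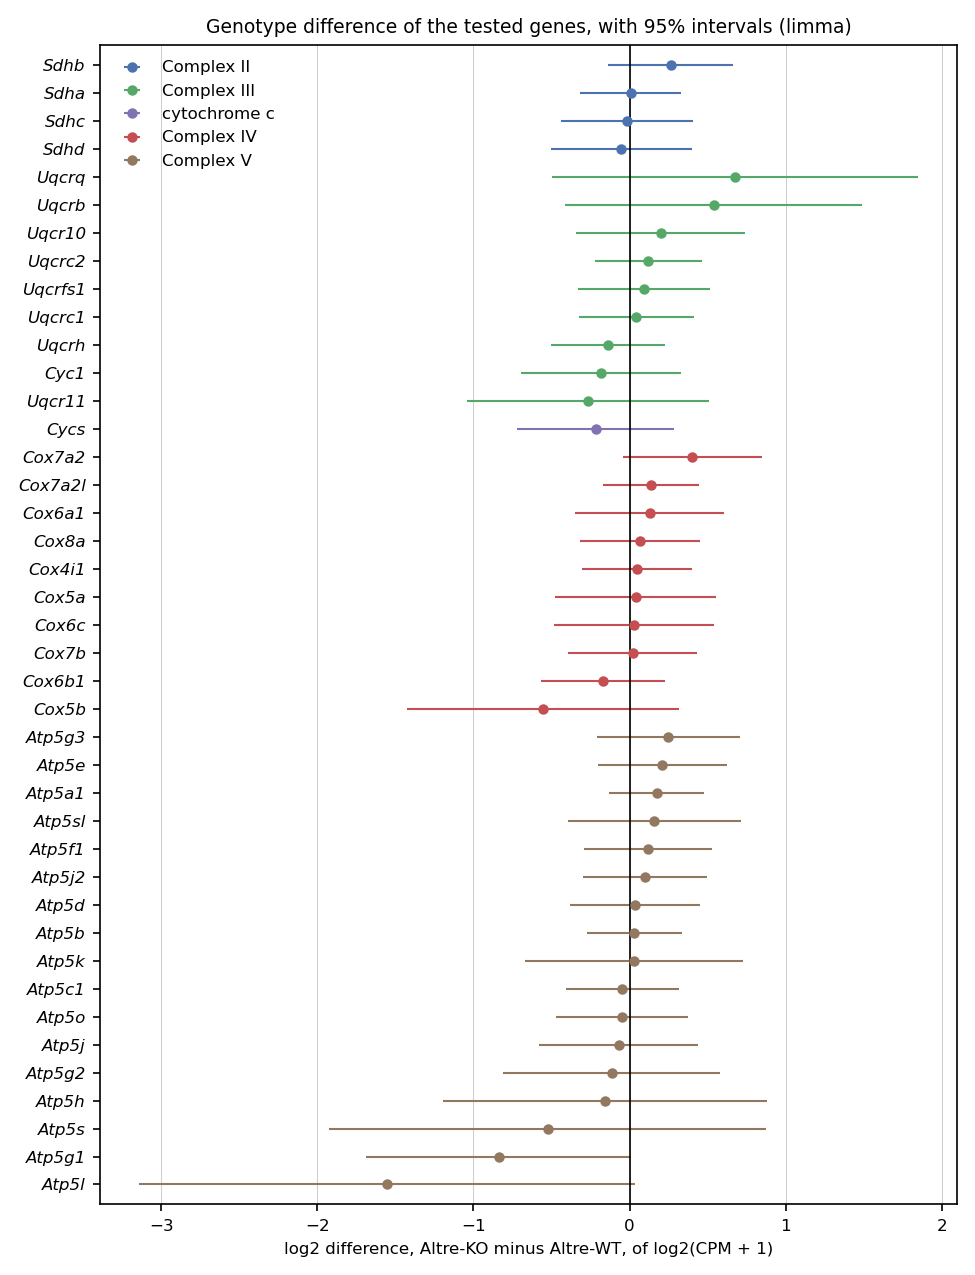
Altre-KO minus Altre-WT difference in log2(CPM + 1) for the 41 tested genes, by complex (colours); points are limma estimates and bars their 95% intervals. Every interval spans 0, and the widest belong to genes with few reads such as Atp5l, Uqcrq and Atp5s.

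The 4 genes of complex II, which make up the whole enzyme, overlapped between genotypes. Sdha, the flavoprotein that oxidises succinate, stood at 225 and 240 CPM in Altre-WT and at 249 and 219 CPM in Altre-KO. Its difference was 0.01 with a 95% interval of -0.32 to 0.33 (limma). Sdhb, the iron-sulfur subunit, was at 96.8 and 83.7 CPM in Altre-WT and at 123 and 95.7 CPM in Altre-KO. Its difference of 0.26 ± 0.19 (SE) had an adjusted p of 0.999 in limma, and the lower Altre-KO library lay below the higher Altre-WT one. Without Altre-KO replicate 1 the difference was 0.0876, and without replicate 2 it was 0.44. Among the membrane anchors that bind haem and ubiquinone, Sdhc was at 72.2 and 91.6 CPM in Altre-WT and at 87.3 and 74.1 CPM in Altre-KO. Sdhd, the other anchor, was at 71.6 and 77.3 CPM in Altre-WT, with the 2 Altre-KO libraries above and below both of these, at 87.9 and 58.4 CPM. Levels of different genes were compared per kb of transcript, except for the shares of c-subunit reads and a count by CPM given further on. Per kb, Sdhb (87.3 ± 14.3 CPM per kb, SD over 4 libraries) and Sdha (80.4 ± 4.60) overlapped in range. Sdhd (59.97 ± 9.97) and Sdhc (25.6 ± 3.03) each lay below the gene before it in every library.

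In complex III, the core subunits and the electron carriers overlapped between genotypes, and 2 small subunits of few reads did not. Those were 2 of 9 genes (22.2%, against 30.8% of all tested genes). The core proteins Uqcrc1 and Uqcrc2 were at 150 and 124 CPM and at 166 and 161 CPM in Altre-WT. In Altre-KO they were at 156 and 128 CPM and at 192 and 164 CPM. Uqcrfs1, the Rieske iron-sulfur protein, was at 87.5 and 85.3 CPM in Altre-WT and again on both sides of these in Altre-KO, at 111 and 76.6 CPM. Cyc1, or cytochrome c1, which passes electrons on to cytochrome c, was at 55.2 and 40.8 CPM in Altre-WT and at 43.8 and 39.8 CPM in Altre-KO. Uqcrh, the hinge subunit, held 153 and 153 CPM in Altre-WT against 158 and 122 CPM in Altre-KO. Its difference was -0.14 with a 95% interval of -0.50 to 0.22 (limma).

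The 2 genes that did not overlap were small supernumerary subunits at low level. Uqcrq (chromosome 11, 53427922 to 53430831, minus strand) was at 3.28 and 4.20 CPM in Altre-WT and at 6.74 and 6.35 CPM in Altre-KO. These values rest on 6, 10, 22 and 15 estimated reads, and the difference of 0.68 ± 0.57 (SE) had an adjusted p of 0.999 in limma. Uqcrb (chromosome 13, 66900617 to 66905378, minus strand), which lies near the ubiquinone site, was at 7.11 and 7.15 CPM in Altre-WT and at 12.6 and 9.31 CPM in Altre-KO. Its difference of 0.54 ± 0.46 (SE) also had an adjusted p of 0.999 in limma, and was 0.34 without Altre-KO replicate 1. The other small subunits, Uqcr10 (34.5, 47.9, 56.3 and 39.0 CPM in the order Altre-WT 1 and 2, Altre-KO 1 and 2) and Uqcr11 (14.8, 21.9, 17.8 and 12.3 CPM), overlapped. Per kb, Uqcrh was the highest of the complex (267 ± 30 CPM per kb, SD over 4 libraries) and Uqcrq the lowest (12.7 ± 4.12). Cytochrome c itself, the mobile carrier made from Cycs, was at 51.4 and 70.6 CPM in Altre-WT and at 62.5 and 42.8 CPM in Altre-KO (-0.22, 95% interval -0.72 to 0.29, limma).

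Complex IV was read almost wholly from 1 isoform of each pair. Of its 10 tested genes, 3 did not overlap between genotypes (30%, against 30.8% of all tested genes). Cox7a2 (chromosome 9, 79755361 to 79759878, minus strand), the common form of subunit VIIa, was at 50.3 and 53.8 CPM in Altre-WT and at 65.8 and 72.4 CPM in Altre-KO. Both Altre-KO libraries lay above both Altre-WT libraries, by 0.40 ± 0.22 (SE), with an unadjusted p of 0.0754 and an adjusted p of 0.999 in limma. Its 95% interval ran from -0.04 to 0.85, and leaving out any 1 library kept the estimate between 0.33 and 0.47. It was 1 of 4 of the tested genes with their highest level in Altre-KO replicate 2. Cox7a2l encodes a related protein described as a factor of supercomplexes of complexes III and IV. It was at 346 and 343 CPM in Altre-WT and at 400 and 360 CPM in Altre-KO. Its difference was 0.14 ± 0.15 (SE), with an adjusted p of 0.999 in limma. It was 0.0617 without Altre-KO replicate 1 and 0.21 without replicate 2.

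Of the subunits around the catalytic core, Cox4i1, a regulatory subunit that binds ATP, was at 254 and 219 CPM in Altre-WT and at 288 and 207 CPM in Altre-KO. Cox5a held the narrowest range of the tested genes of the complex, at 37.7, 42.0, 40.4 and 41.5 CPM in the same library order. Cox5b (chromosome 1, 36691449 to 36693681, plus strand), a zinc-binding subunit, was at 16.4 and 12.2 CPM in Altre-WT and at 11.3 and 7.62 CPM in Altre-KO. Its genotypes did not overlap, but the difference of -0.56 ± 0.42 (SE) had an adjusted p of 0.999 in limma, and the gap between the nearest libraries was under 1 CPM. It was -0.36 without Altre-WT replicate 1 and -0.30 without Altre-KO replicate 2. The remaining subunits overlapped. Cox6a1 stood at 52.0, 45.8, 59.1 and 48.3 CPM, Cox6b1 at 136, 104, 119 and 94.0 CPM, and Cox7b at 88.0, 86.2, 102 and 76.6 CPM. Cox8a stood at 121, 96.7, 110 and 117 CPM and Cox6c at 49.2, 61.8, 71.95 and 44.03 CPM.

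The isoforms known from muscle, lung or testis were at or near 0. Cox6a2, Cox6b2, Cox7b2, Cox8b and Cox8c had no read in any of the 4 libraries, which allows at most 3 reads over all of them, or 0.305 CPM. Cox4i2, known from lung, had 2 reads, both in Altre-KO replicate 1, and Cox7a1, known from heart and skeletal muscle, had 1 read, in Altre-WT replicate 2. Per kb of transcript Cox4i1 was 1180 times Cox4i2 (95% Poisson interval 326 to 9730), and Cox7a2 was 361 times Cox7a1 (64.9 to 14300). Against the floor of 3 reads, Cox6a1 was at least 203-fold higher than Cox6a2 and Cox6b1 at least 278-fold higher than Cox6b2. On the same floor Cox7b was at least 159-fold higher than Cox7b2, and Cox8a at least 237-fold higher than Cox8b and 301-fold higher than Cox8c. These intervals and floors cover counting error only. None of the pairs could be compared between genotypes, since the restricted isoforms were too low.

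**Figure D2:**
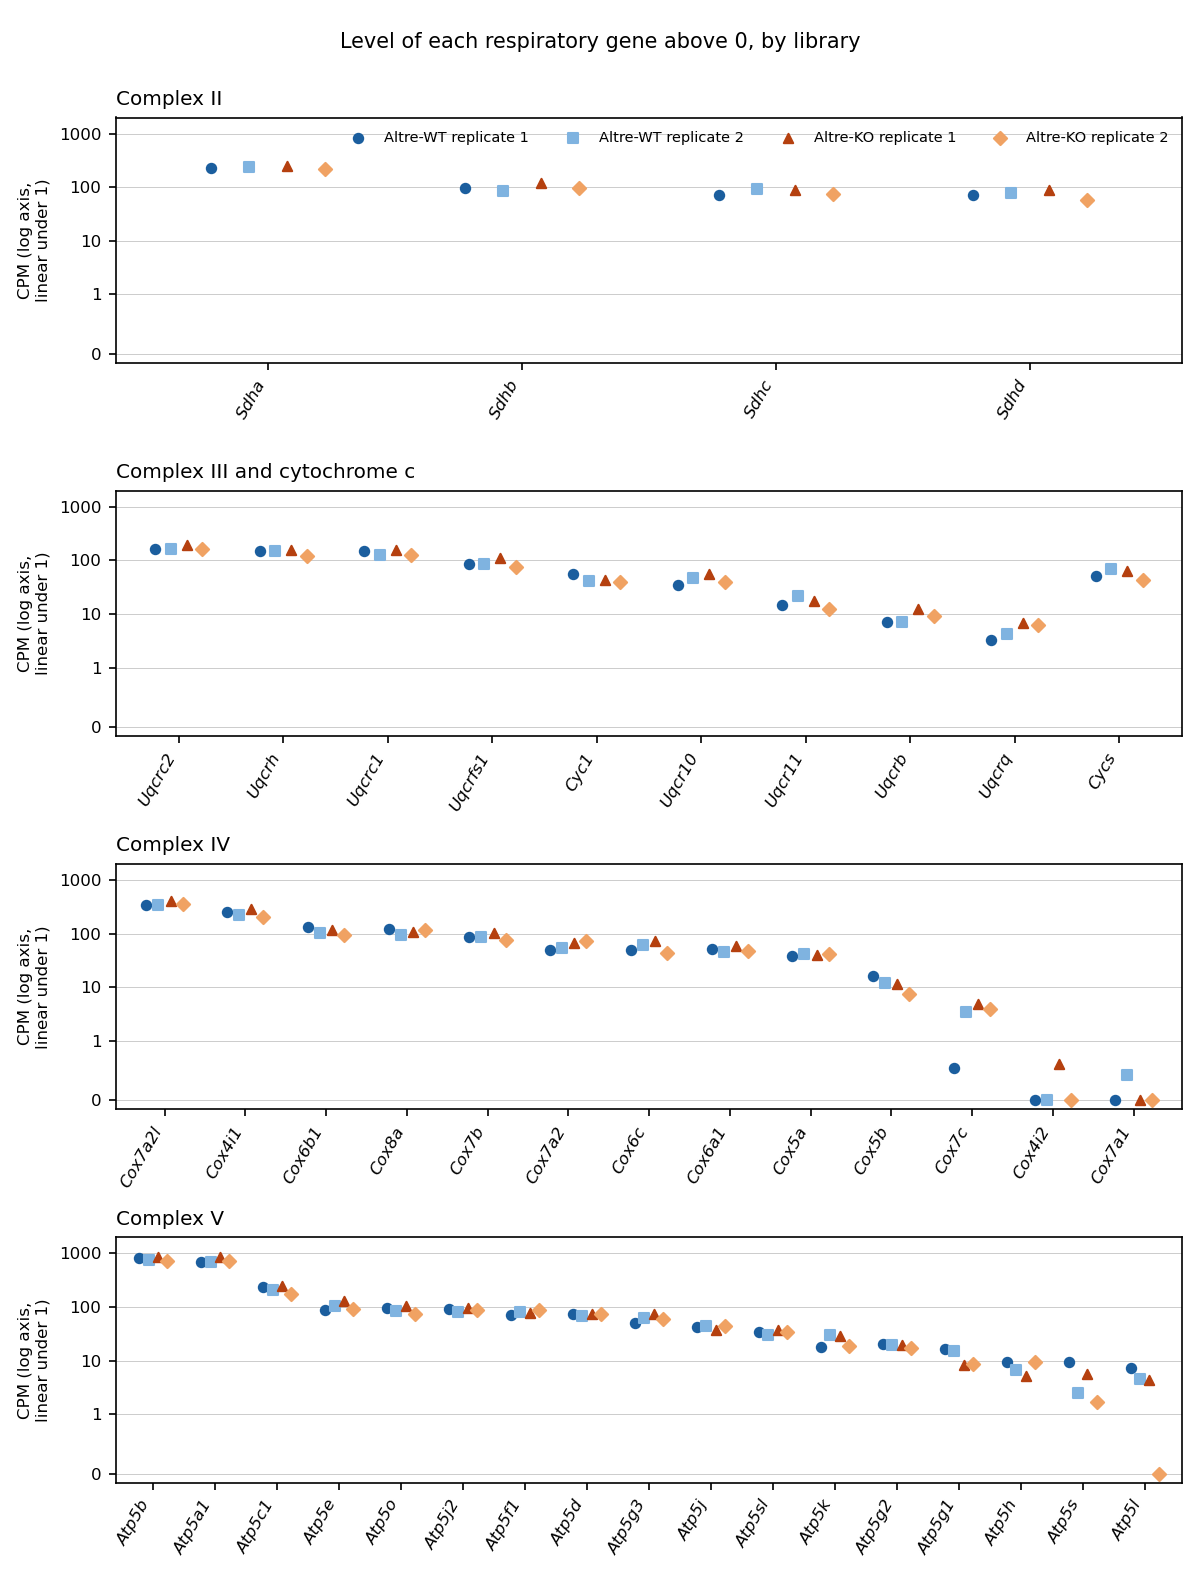
Level in CPM (vertical axis, logarithmic above 1 and linear below) of the 44 genes above 0, by complex and in order of mean level; each symbol is 1 of the 4 libraries. Genotypes mix for most genes, the restricted isoforms Cox4i2 and Cox7a1 lie at or near 0, and Atp5l is at 0 in Altre-KO replicate 2.

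Complex V held the gene with the highest level per kb of all, Atp5b, and 4 of the 5 genes of its F1 head overlapped between genotypes. Over the whole complex 3 of 17 genes did not overlap (17.65%, against 30.8% of all tested genes). Atp5a1, the alpha subunit, was at 703 and 697 CPM in Altre-WT and at 872 and 716 CPM in Altre-KO. The difference was 0.17 ± 0.15 (SE), with an adjusted p of 0.999 in limma, and without Altre-KO replicate 1 it was 0.03. Atp5b, the beta subunit that holds the catalytic sites, was at 823 and 744 CPM in Altre-WT and at 869 and 736 CPM in Altre-KO. The central shaft follows: Atp5c1 (gamma) was at 234 and 203 CPM in Altre-WT, with Altre-KO on both sides at 251 and 177 CPM. Atp5d (delta) varied least of the F1 genes, from 68.9 to 74.4 CPM over the 4 libraries, and Atp5e (epsilon) was at 86.9 and 106 CPM in Altre-WT against 132 and 93.1 CPM in Altre-KO. Per kb, Atp5b was the highest (414 ± 33.4 CPM per kb, SD over 4 libraries), above Atp5a1 (302 ± 33.8) in every library. Of the other F1 genes, Atp5e (248 ± 47.4) and Atp5c1 (185 ± 28.1) overlapped in range, and Atp5d (77.9 ± 2.69) lay below both.

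The peripheral stalk holds the head still against the rotor, and the membrane subunits e, f and g link the enzyme into dimers. Atp5o, or OSCP, the tip of the stalk, was at 97.3 and 82.4 CPM in Altre-WT and at 102 and 73.2 CPM in Altre-KO. Atp5f1 (subunit b) was at 70.0, 81.6, 78.4 and 86.0 CPM, Atp5j (F6) at 42.7, 43.3, 38.0 and 44.0 CPM and Atp5h (subunit d) at 9.30, 6.73, 5.21 and 9.31 CPM. All 4 stalk genes overlapped between genotypes. Of the membrane subunits, Atp5j2 (f) was at 92.4, 79.0, 94.6 and 88.9 CPM and Atp5k (e) at 18.1, 29.4, 29.1 and 19.1 CPM. Atp5l (g; chromosome 9, 44912557 to 44920742, minus strand) was at 7.11 and 4.62 CPM in Altre-WT, at 4.29 CPM in Altre-KO replicate 1 and listed at 0 in replicate 2. These are 13, 11, 14 and 0 estimated reads, and 0 reads allow up to 1.27 CPM in that library. Its difference of -1.55 ± 0.77 (SE) had an unadjusted p of 0.0547 and an adjusted p of 0.999 in limma, and it was -0.35 without Altre-KO replicate 2. Atp5s (9.30, 2.52, 5.51 and 1.69 CPM) and Atp5sl (34.5, 29.9, 37.7 and 34.3 CPM) carry the name of the synthase but are not structural subunits, and RefSeq calls them Dmac2l and Dmac2.

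The c subunit of the ring is made from 3 genes, Atp5g1, Atp5g2 and Atp5g3, which encode the same mature protein behind different targeting sequences. Their summed level differed by less than the spread between libraries, at 92.1 ± 5.82 CPM (SD, n = 2) in Altre-WT and 94.1 ± 12.8 CPM (SD, n = 2) in Altre-KO, while the share of Atp5g1 was lower in both Altre-KO libraries. Atp5g1 (chromosome 11, 96068852 to 96075670, minus strand) was at 16.4 and 15.1 CPM in Altre-WT and at 8.27 and 8.47 CPM in Altre-KO, from 30, 36, 27 and 20 estimated reads. The 2 libraries of each genotype lay close together and the genotypes did not overlap. The difference of -0.84 ± 0.41 (SE), with a 95% interval of -1.69 to 0.01, had the smallest unadjusted p of the 41 genes (0.0530), but the adjusted p was 0.999 in limma. Leaving out any 1 library kept it between -0.89 and -0.78. Atp5g2 (chromosome 15, 102662864 to 102672352) was at 20.8, 19.3, 19.6 and 17.4 CPM, and Atp5g3 (chromosome 2, 73908447 to 73911326) at 50.9 and 61.8 CPM in Altre-WT and at 75.3 and 59.3 CPM in Altre-KO. Both overlapped between genotypes.

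Of the c-subunit reads, Atp5g1 gave 18.6% (95% Wilson interval 13.4 to 25.4) and 15.7% (11.6 to 21) in Altre-WT. In Altre-KO it gave 8.01% (5.56 to 11.4) and 9.95% (6.53 to 14.9). Atp5g3 gave 57.8% (50 to 65.1) and 64.2% (57.8 to 70.1) in Altre-WT, and 73.0% (68.0 to 77.5) and 69.7% (63.0 to 75.6) in Altre-KO. Atp5g2 stayed between 19% and 23.6%. These are shares of reads, not corrected for transcript length. The Atp5g1 share thus lay lower and the Atp5g3 share higher in both Altre-KO libraries, and the interval of Altre-KO replicate 2 overlapped those of both Altre-WT libraries for each gene. The shares of a library add up to the whole, so the orders of Atp5g1 and Atp5g3 are not separate observations. The Wilson intervals too cover counting error only, which over all genes is smaller than the spread between libraries of 1 genotype. An exact permutation test of 2 libraries against 2 cannot give a 2-sided p under 0.333, and no other test of the shares was run. The pseudogene Gm10039 is 99.8% identical to the coding sequence of Atp5g1, and Gm10231 is 100% identical to that of Atp5g2; neither copy was analysed here.

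**Figure D3:**
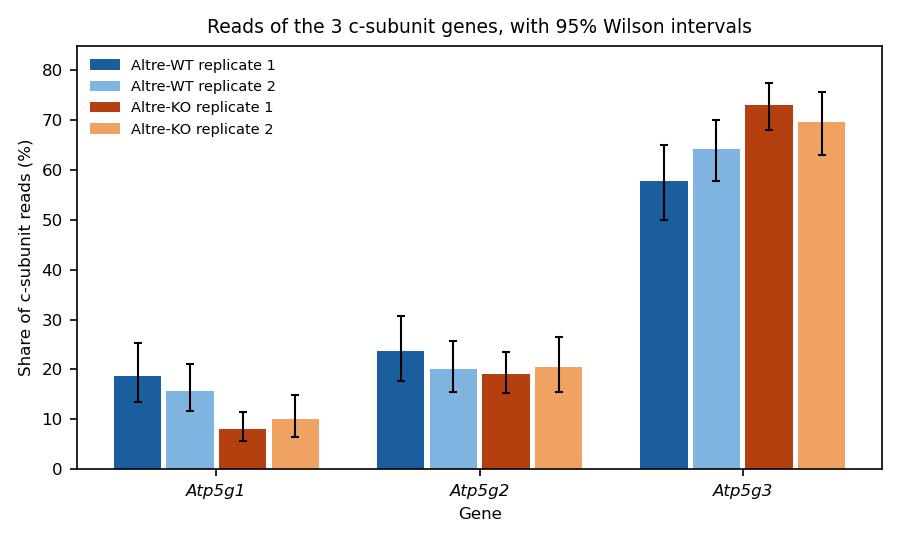
Share of the reads of the 3 c-subunit genes (vertical axis, percent) that each gene gave in each library; bars are single libraries and error bars 95% Wilson intervals. Atp5g1 took 15.7% and 18.6% in Altre-WT and 8.01% and 9.95% in Altre-KO, with the opposite order for Atp5g3. The shares of a library add up to the whole, so the order for Atp5g3 is not a separate observation.

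The 2 Altre-KO libraries differed from each other more than the genotypes did. Altre-KO replicate 1 was the highest of the 4 libraries in 23 of the 41 tested genes (56.1%, against 30.7% of all tested genes), and Altre-KO replicate 2 the lowest in 18 (43.9%, against 27.7%). Over all tested respiratory genes, replicate 1 exceeded replicate 2 in 33 of 41 (80.5%, against 56.0%), with a median difference of 0.29 on the log2 scale against 0.06 over all tested genes. Both Altre-WT libraries lay between the 2 Altre-KO libraries in 12 of 41 (29.3%, against 19.4% of all tested genes), among them Sdha, Atp5b, Atp5c1 and Cox4i1. Replicate 1 exceeded replicate 2 in 4 of 4 genes of complex II, 9 of 9 of complex III, 7 of 10 of complex IV and 12 of 17 of complex V, but in only 1 of the 4 peripheral stalk genes. Summed over each complex, Altre-KO replicate 1 was the highest and lay above both Altre-WT libraries in all 4. Complex II summed to 466, 492, 546 and 448 CPM, complex III to 671, 646, 753 and 597 CPM, complex IV to 1152, 1069, 1273 and 1072 CPM and complex V to 2389, 2275, 2694 and 2238 CPM. Over all 49 genes, Altre-WT stood at 4641 ± 125 CPM (SD, n = 2) and Altre-KO at 4863 ± 659 CPM (SD, n = 2), so that the genotype means lay closer together than the 2 Altre-KO libraries.

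Transcript length moved with this pattern. Most of these transcripts are short, with a median of 838 bases against 2902 for all tested genes. Among other tested genes, Altre-KO replicate 1 exceeded replicate 2 in 77.4% of 656 under 1000 bases, 72.7% of 2257 from 1000 to 2000 bases and 49.0% of 7460 of 2000 bases or more. The respiratory genes did so in 17 of 24, 11 of 12 and 5 of 5 of these classes. For the 24 shortest the share of 70.8% was not above the 77.4% of other genes of that class. In the longer classes it was above, at 91.7% against 72.7% and 100% against 49.0%. The median log2 difference of replicate 1 from replicate 2 was above that of other genes in every class. From the shortest class to the longest it was 0.34 against 0.29, 0.32 against 0.22 and 0.23 against -0.01. The longest class holds only Sdha, Sdhc, Cycs, Atp5a1 and Atp5sl. The share of reads on listed genes, given above, was also highest in Altre-KO replicate 1. The part of length, or of that share, in these values was not tested. The subunits of complex I, the chain's other entry point, showed values of the same kind: 25 of 33 tested genes were highest in Altre-KO replicate 1, and 24 of 33 had an estimate above 0 (median 0.14), or 16 of 33 without that library. None of the 33 passed the threshold in limma or had an unadjusted p under 0.05.

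**Figure D4:**
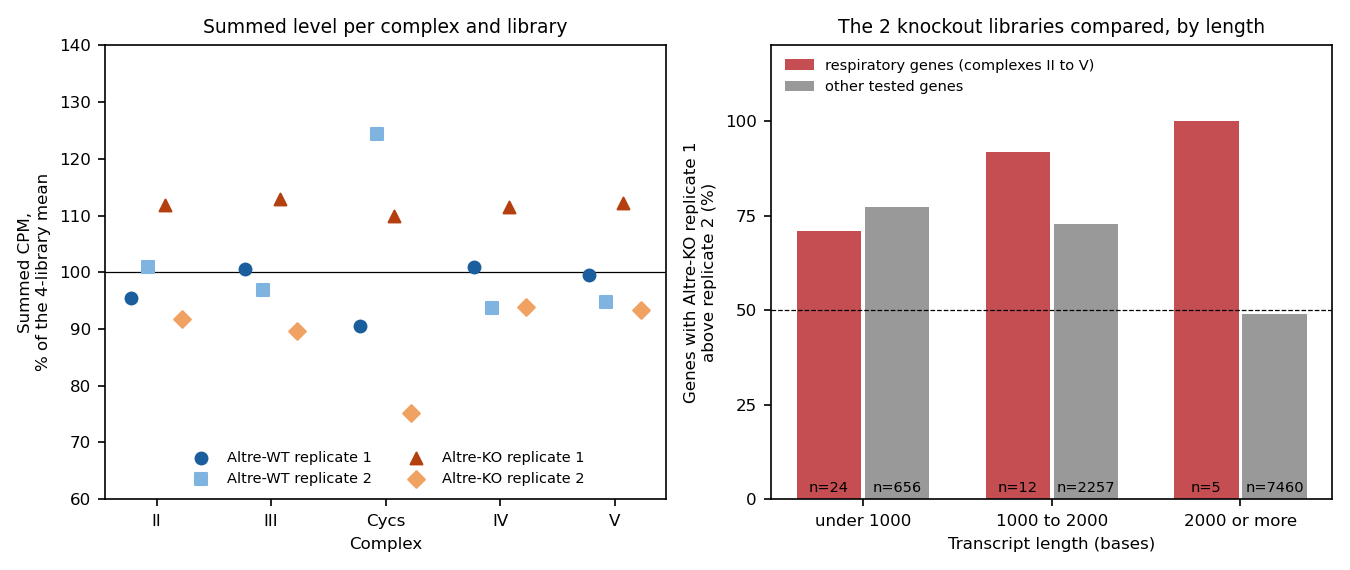
Left, the summed CPM of each complex in each library as a percentage of the mean of the 4 libraries (axis from 60 to 140); right, the share of genes with a higher level in Altre-KO replicate 1 than in replicate 2, by transcript length, for the respiratory genes and other tested genes. Altre-KO replicate 1 is the highest library in all 4 complexes but not for Cycs, and short genes of both kinds share the order of the 2 Altre-KO libraries.

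Near-identical copies in annotated transcripts of other genes, mostly pseudogenes, were found for 16 of the 49 genes. A copy had at least 95% identity over at least 80% of the coding sequence. Copies outside the annotation were not searched for. Genes with copies were listed at lower levels. Leaving out the restricted isoforms, the 16 had a median of 40.6 CPM per kb (5.97 to 337) and the other 26 a median of 86.9 CPM per kb (3.20 to 414). Of the 16, 9 had a mean under 25 CPM, against 2 of 26, with no correction for length. Cox7c, a small structural subunit of complex IV, had 3 copies. It was listed at 0.55 and 3.46 CPM in Altre-WT and at 4.95 and 3.93 CPM in Altre-KO, in part from fractional reads, and did not pass the filter. The pseudogene Gm12338, whose sequence matches the Cox7c coding sequence at 100% identity, was listed at 56.3 and 56.2 CPM in Altre-WT and at 114 and 68.7 CPM in Altre-KO. Both Altre-KO libraries lay above both Altre-WT libraries, by 0.64 ± 0.23 (SE). The unadjusted p was 0.0101 and the adjusted p 0.999 in limma. Gm12338 is not among the 41 tested respiratory genes. Cox7c, Gm12338 and Gm10012, a further copy, summed to 56.9, 59.7, 119 and 73.7 CPM. Reads of a gene and such a copy cannot be told apart from these values, so the levels and differences of genes with copies are uncertain. Of the 8 non-overlapping genes, Uqcrb (3 copies), Cox7a2l (1), Cox5b (1), Atp5g1 (1) and Atp5l (8) have copies. No copy was found for Uqcrq, Cox7a2 and Atp5a1.

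**Figure D5:**
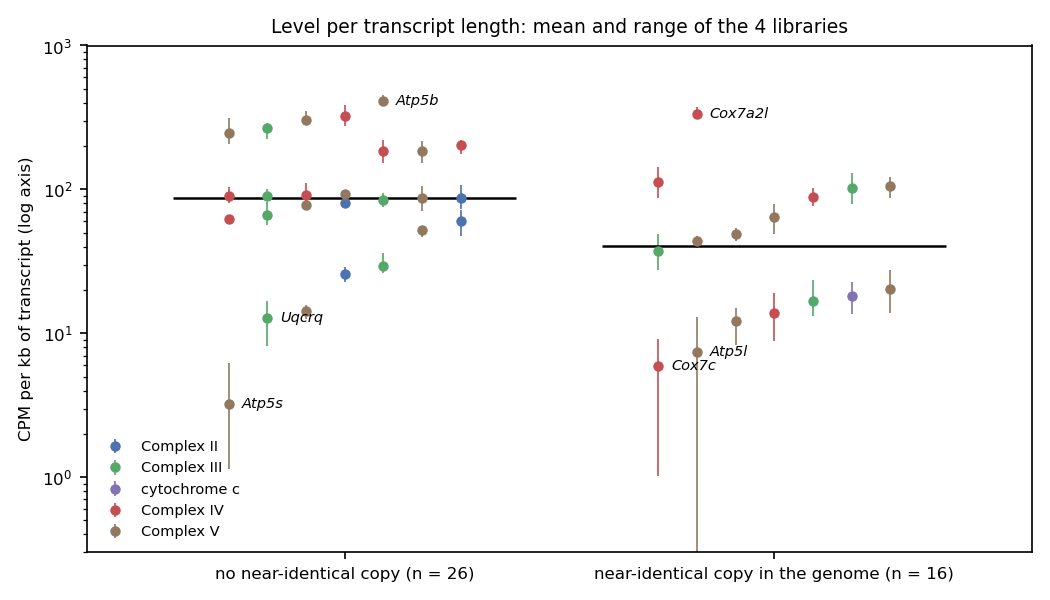
Level in CPM per kb of transcript (logarithmic axis) of the 42 genes other than the restricted isoforms. Genes are split by whether a transcript of another annotated gene holds a near-identical copy of the coding sequence. Points are means over the 4 libraries, vertical lines their range (that of Atp5l reaches 0, off the axis) and black lines the medians. The medians are 86.9 CPM per kb without and 40.6 with a copy.

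Genes that build, inhibit, supply or regulate these complexes were taken from 8 lists of 66 genes. Of the 61 that were tested, 0 passed the threshold in either direction in limma or in limma-voom, and 1 had an unadjusted p under 0.05 in limma. That gene was Coa7, an assembly factor of complex IV, at 6.56 and 6.73 CPM in Altre-WT and at 14.4 and 16.5 CPM in Altre-KO (1.10 ± 0.43 SE, unadjusted p 0.0178, adjusted p 0.999 in limma). Estimates lay above 0 for 15 of 25 assembly factors of complex IV, 2 of 3 of complex II and 2 of 4 of complex V, against 47.9% of all tested genes. In complex III they lay above 0 for 5 of 6, with a median of 0.54. This included Uqcc3, needed for cytochrome b (30.6 and 26.1 CPM in Altre-WT, 51.1 and 34.3 CPM in Altre-KO), while Uqcc1 was at 38.8 and 38.7 CPM in Altre-WT and at 29.4 and 27.9 CPM in Altre-KO. That median was between 0.22 and 0.42 when any 1 library was left out. It was 0.30 over the 4 genes at a mean of at least 20 CPM, and 0.29 with a pseudocount of 5. Among the 5 above 0, Lyrm7 was at 0 and 5.46 CPM in Altre-WT and at 0.92 and 6.35 CPM in Altre-KO.

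The smallest p of each remaining list belonged to genes of several roles. Sdhaf1, an assembly factor of complex II, was at 92.4 and 90.8 CPM in Altre-WT and at 122 and 94.8 CPM in Altre-KO. Fmc1, of complex V assembly, was at 5.47, 4.20, 8.57 and 5.08 CPM. Atpif1, which inhibits the ATP synthase when it runs backwards, was at 27.3 and 21.02 CPM in Altre-WT and at 18.4 and 14.0 CPM in Altre-KO. Its difference of -0.55 ± 0.34 (SE) had an adjusted p of 0.999 in limma, and it and the other 2 genes of its list (Higd1a and Higd2a) all had estimates below 0. Ndufa4, a subunit of complex IV that carries a complex I name, was at 60.2 and 73.6 CPM in Altre-WT and at 58.5 and 50.4 CPM in Altre-KO (-0.29 ± 0.22 SE, adjusted p 0.999 in limma). Of the carriers and channels for ATP, ADP and phosphate, 5 of 6 had estimates above 0, and the one with the smallest p, Vdac1, was at 66.7, 82.8, 86.3 and 80.02 CPM. Of 12 tested regulators of respiration, 10 had estimates above 0, where 47.9% of all tested genes did. The 2 below 0 were Pprc1 (-0.48 ± 0.35 SE) and Ppargc1b (-0.27 ± 0.49 SE). Ppargc1a, not tested, was at 3.83 and 4.20 CPM in Altre-WT and at 0 and 1.69 CPM in Altre-KO. Tfb2m, which starts mitochondrial transcription and had the smallest p, was at 12.0 and 17.7 CPM in Altre-WT and at 20.2 and 25.4 CPM in Altre-KO. The factors of the promoter motifs were present in every library: Nrf1 at 97.3 to 121 CPM, Gabpa at 116 to 143 CPM, Yy1 at 114 to 130 CPM and Esrra at 43.7 to 53.0 CPM.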

How the data were processed

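Per the labels, RNA of liver Tregs was made into libraries with an mRNA kit, and the tools named in the submitters' processing notes are cutadapt, STAR and DESeq2, with build mm10 (versions and counter: not given in the sources used here). In 1 table the authors deposited each library's RPM (with 0.0001 added to each value) and CPM, each genotype's mean signal, the log2 of their ratio, its p-value and an adjusted p-value. In the RPM, 92.9% to 93.8% of values were whole reads within 0.02 of a read, so a count test, as planned, was not used. Limma 3.58.1 (R 4.3.3) was run on log2(CPM + 1) with a mean-variance trend, genotype as the only term and Benjamini-Hochberg adjustment at 0.05. It draws the variance of each gene toward a value shared across genes (prior degrees of freedom 20.8). The SE and p of a gene thus rest mostly on that shared value, not on the gene's own spread. The genes and lists were chosen with earlier results of these data known. Within a genotype the libraries were not copies of each other: chi-square per degree of freedom was 3.50 in Altre-WT and 10.3 in Altre-KO, above sampling noise. Every gene was accounted for. Values in every library were given for the 3 genes of smallest p per complex, catalytic and central subunits, isoform families, the smallest p of each list, and other genes where space allowed. Lengths and positions are from GENCODE M21 (GRCm38, shortest principal transcript). Copies are from blastn 2.17.0 of coding sequences against GENCODE M21 transcripts, and promoters are from RefSeq. The script was tested on simulated data. Alternatives were the normalization, filter, pseudocount, limma-voom, RPM, the replicate block and leaving out each library; leaving out Atp5s and Atp5sl, or the genes with copies, was added after seeing the data.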

Additional observations from a re-analysis of the deposited data

How the results depend on the processing

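Depth limits the low genes: Atp5g1 rests on 20 to 36 estimated reads per library (95% interval -1.69 to 0.01) and Atp5l on 0 to 14 (-3.14 to 0.0341). None of the 41 respiratory genes passed the threshold under any alternative; the smallest adjusted p in limma was 0.507, for Atp5a1 without Altre-KO replicate 2. Of 159 values of summary results under alternatives, 140 moved by less than the spread between libraries or, for counts, stayed near the count reported; medians near 0 changed sign among them. Genes past the threshold over all tested numbered 4, but 2 with a pseudocount of 0.1 and 6 to 16 when a library was left out; those higher in Altre-KO numbered 0, but 2 on the RPM columns, 1 with the replicate block, and 0 to 11 without a library. The RPM columns moved the median of all genes from -0.01 to 0.38, and their values are given relative to it; they called 2 genes higher and 4 lower against 0 and 4. Respiratory genes without overlap numbered 8, but 3 at a mean of at least 20 CPM, 18 on the RPM columns and 21 to 29 without a library. The share of all tested genes under these settings is not given here, so the counts are not read as a trait of respiratory genes. On the RPM columns, before the median was taken off, 90% of all tested genes had estimates above 0. Without a library 1 group has a single value, which makes non-overlap more frequent for any gene. Respiratory genes with estimates above 0 numbered 25, and 16 to 32 without a library. Leaving out a library moved the median difference to between -0.0873 and 0.184 over all respiratory genes, -0.11 and 0.17 in complex II, -0.0966 and 0.23 in complex III, -0.0988 and 0.22 in complex IV, and -0.0413 and 0.15 in complex V. The cause of these shifts was not tested.

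Over all tested genes, same-numbered libraries did not deviate together (correlation of same-numbered deviations -0.01). The labels do not say whether a number marks a pair, so pairing remains unknown. The replicate block called 6 genes and no respiratory gene. Sdhc turned from -0.02 to 0.0136 with median-of-ratios size factors, 0.0010 with upper-quartile scaling and 0.0184 on the RPM columns, and Atp5c1 from -0.05 to 0.0006 on the RPM columns. Without 1 library, 19 of the 31 genes named by rule changed sign, with log2 differences of -0.34 to 0.24 for Sdhd, -0.19 to 0.15 for Sdhc, -0.0829 to 0.0973 for Sdha, -0.32 to 0.0452 for Uqcrh, -0.0966 to 0.18 for Uqcrc1, -0.17 to 0.35 for Uqcrfs1, -0.40 to 0.0332 for Cyc1, -0.49 to 0.0509 for Cycs, -0.19 to 0.28 for Cox4i1, -0.0371 to 0.12 for Cox5a, -0.0152 to 0.27 for Cox6a1, -0.36 to 0.0212 for Cox6b1, -0.18 to 0.22 for Cox7b, -0.0919 to 0.23 for Cox8a, -0.0873 to 0.15 for Atp5b, -0.30 to 0.20 for Atp5c1, -0.0172 to 0.0907 for Atp5d, -0.0399 to 0.46 for Atp5e and -0.29 to 0.19 for Atp5o. Others kept their sign but moved widely: 0.0876 to 0.44 for Sdhb, 0.34 to 0.74 for Uqcrb, 0.0083 to 0.23 for Uqcrc2, -0.81 to -0.30 for Cox5b, 0.0617 to 0.21 for Cox7a2l, 0.0316 to 0.32 for Atp5a1, -0.20 to -0.0310 for Atp5g2, 0.0790 to 0.42 for Atp5g3 and -2.76 to -0.35 for Atp5l.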
